A study of Mus musculus with 98 samples.

Results

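The genes described here are 33 mouse genes of cholesterol and fatty acid synthesis, a list of named pathway enzymes and their regulators, among the 21812 gene symbols of each count table. All 33 were found in each of the 9 tables. By role they fall into 7 genes of the mevalonate steps, 11 of the squalene and sterol steps, 6 regulators (the sterol carrier Stard4 among them), and 9 genes of the fatty acid steps. All 33 passed the filter on low counts in the 8 tables in which groups were compared, and 32 passed it in the remaining table.

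RNA was sequenced from TBLCs, totipotent blastomere-like cells grown in the medium labelled 2MYCP, and from cells on their way to primitive endoderm (PrE), the extraembryonic layer beside the epiblast. The series holds 98 samples in 49 groups of 2 replicates, of which 86 libraries have gene counts. diffTBLC is the group name for TBLCs after 3 days in the medium SLM, and these were also sorted on CD140, a name for the PDGF receptors (Pdgfra marks PrE), into CD140+ cells (PrE-T) and CD140- cells (EPI-T). TBLC_PlaB- cells had 8 h in SLM and were set against TBLC_Ctrl cells kept in 2MYCP. In diffTBLC the study also used siRNAs against Mettl3 or Virma, which are parts of the m6A methyltransferase complex, and against Igf2bp3, a protein that binds m6A-marked RNA, with siNC groups as controls. RNA bound by IGF2BP3 or by YTHDF2, another m6A reader, was pulled down from diffTBLC with an antibody and sequenced beside its input, and no control pull-down was used here. In 4 courses cells were taken 0, 1, 2 and 3 h after actinomycin D, which blocks transcription. All groups come from TBLCs; no label names a separate culture or clone for the replicates, so the p-values rest on the spread between 2 libraries of a group, and that spread may be technical alone.

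Cells make cholesterol and fatty acids from acetyl-CoA. The mevalonate steps turn acetyl-CoA into isoprenoid units, which are joined to squalene, closed into lanosterol and trimmed to cholesterol, while acetyl-CoA carboxylase and fatty acid synthase build fatty acids that are then elongated and desaturated. The transcription factors SREBP-1 and SREBP-2 switch on these genes when the escort protein SCAP carries them from the endoplasmic reticulum to the Golgi, and INSIG proteins hold SCAP back when sterols are plentiful, so that sterol-poor cells raise the whole set together.

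The promoter of the sterol gene Hmgcs1 is shown because its levels differed between cell states and it held the spelled SREBP motif. Below it are 4 other members, from each of the 4 roles, with the box bound by NF-Y, a factor that commonly acts beside SREBPs. Sequences are RefSeq's, on the GRCm38.p6 build, and positions are counted in bases before the annotated start. Capitals mark TCACNCCAC in Hmgcs1 and CCAAT, or its reverse complement ATTGG, in the others, with a single match marked where a window holds more (Idi1 and Fasn).
Hmgcs1 (chr13:119690184-119690253, plus strand, motif 137 bases before the start): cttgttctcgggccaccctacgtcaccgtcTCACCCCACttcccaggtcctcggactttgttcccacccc
Idi1 (chr13:8885546-8885605, plus strand, 14 bases before the start): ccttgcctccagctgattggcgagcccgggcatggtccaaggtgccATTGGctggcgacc
Cyp51 (chr5:4104698-4104757, minus strand, 29 bases before the start): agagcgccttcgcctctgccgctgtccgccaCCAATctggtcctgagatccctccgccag
Insig1 (chr5:28071168-28071227, plus strand, 216 bases before the start): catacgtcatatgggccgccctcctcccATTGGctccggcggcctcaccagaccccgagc
Fasn (chr11:120824575-120824634, minus strand, 59 bases before the start): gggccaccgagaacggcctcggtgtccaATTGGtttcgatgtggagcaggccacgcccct

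The 250 bases upstream of the start were searched on both strands for 3 motifs in the 26 members matched by symbol, and Fdps, Fdft1, Sqle, Stard4, Scd1, Scd2 and Fads1 were not matched. The SREBP motif TCACNCCAC was found in 1 of 26 members, Hmgcs1, and in 1.22% of the 27025 genes with a promoter in the table. CCAAT was found in 20 of 26 members and in 37.5% of genes, and the Sp1 motif GGGCGG in 22 of 26 members and in 35.4% of genes. None of the motifs contains another. These shares are descriptions of letters in a fixed window, and they carry no test.

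The labels were checked first. In the sorted libraries Gata6, a transcription factor of PrE, measured 205 and 218 CPM (the count scaled to a fixed library size, here the TMM-scaled one) in PrE-T, 2.99 and 2.93 in EPI-T and 26.8 and 26.1 in TBLC, and the epiblast factor Nanog was lowest in PrE-T at 14.8 and 14.8 CPM. The 8 fibroblast and feeder markers summed to 761 and 743 CPM in TBLC, 129.5 and 126 in PrE-T and 40.1 and 45.1 in EPI-T, where Lum was at 0 in both libraries. Depth was 20302848 to 29471283 counts in the sorted libraries, 3968442 to 4750020 in the steady-state siRNA libraries, 2483808 to 12666298 in the pull-down libraries and their inputs, and 11433895 to 23145666 in the actinomycin D courses. Virma was lower in both siVirma experiments, but Mettl3 was not called in siMettl3 and Igf2bp3 was higher in the libraries labelled siIgf2bp3 at 0 h, as given below. The 0 h libraries labelled siNC1 and siNC2 and the 3 h libraries labelled siIgf2bp3 stood apart from the others of their courses.

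The first comparison asked how the sorted CD140+ and CD140- cells differ from TBLC and from each other. Lipid synthesis genes were higher in both sorted populations than in TBLC, with larger differences in PrE-T for most sterol genes. In PrE-T against TBLC, 31 of 33 members were called higher and 1 lower by edgeR's quasi-likelihood test with Benjamini-Hochberg adjustment at 0.05, where 33.5% of all genes tested were called higher and 33.8% lower. The members' median log2 difference was 1.69, beside -0.03 over all genes tested. In EPI-T against TBLC, 26 members were higher and 2 lower (background 30.1% and 34.8%), with a median of 1.05 beside -0.07. These comparisons share the TBLC libraries. In PrE-T against EPI-T, 24 members were higher and 3 lower (background 35.8% and 32.8%), with a median of 0.64 beside 0.03. These counts are under TMM scaling. With library totals in its place they were 29 and 2 in PrE-T against TBLC, 24 and 3 in EPI-T against TBLC, and 21 and 5 between the sorted populations. In bulk samples, fewer cells of a type and less RNA per cell cannot be told apart.

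**Figure D1:**
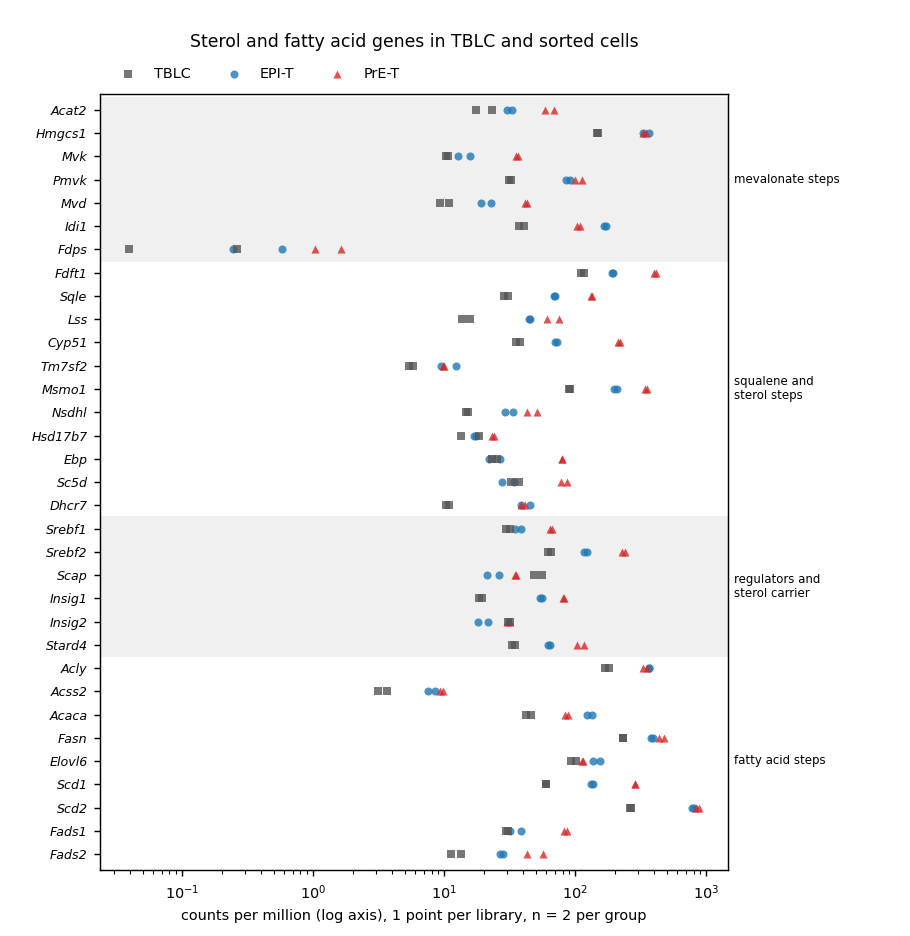
CPM on a log axis of each of the 33 genes (rows, grouped by role) in the 2 libraries each of TBLC, EPI-T and PrE-T. Each point is 1 library. For most genes the TBLC points lie farthest to the left, and for Cyp51, Ebp and Scd1 the PrE-T points lie apart to the right, while for Idi1 and Acaca the EPI-T points do.

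Summed over the 33 members, TBLC held 1802 and 1794 CPM, EPI-T 3754 and 3730 and PrE-T 5051 and 4905. The 3 groups did not overlap. Among the mevalonate steps, all 7 of 7 were higher in PrE-T than in TBLC and 6 of 7 in EPI-T, or 7 and 5 with library totals. In PrE-T against EPI-T 4 were higher and 1 lower, or 3 and 2 with library totals. Hmgcs1, which makes HMG-CoA at the entry to the pathway, measured 147 and 148 CPM in TBLC, 368 and 327 in EPI-T and 329 and 348 in PrE-T. Both sorted populations lay above TBLC and overlapped with each other, and the log2 difference between PrE-T and EPI-T was -0.04 ± 0.06 (standard error, adjusted p = 0.593). Idi1, which isomerises isopentenyl diphosphate, measured 40.4 and 36.99 CPM in TBLC, 166 and 171 in EPI-T and 103 and 109 in PrE-T. It was highest in EPI-T with no overlap, at log2 -0.67 ± 0.066 in PrE-T against EPI-T (adjusted p = 9.25e-08). Mvk, the mevalonate kinase, measured 10.7 and 10.4 CPM in TBLC, 15.6 and 12.8 in EPI-T and 36.5 and 35.0 in PrE-T, so that the kinase was highest where the isomerase was not.

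The other mevalonate genes Acat2 (acetoacetyl-CoA thiolase), Mvd (mevalonate diphosphate decarboxylase) and Pmvk (phosphomevalonate kinase) also exceeded EPI-T in the PrE-T libraries, by log2 1.02 ± 0.12, 1.01 ± 0.13 and 0.26 ± 0.079. Fdps, the farnesyl diphosphate synthase, was counted at only 0.0391 and 0.262 CPM in TBLC and 1.64 and 1.03 in PrE-T. Its values are uncertain, since copies of near-identical sequence could share its reads and no source used here says how such reads were counted.

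In the squalene and sterol steps, 11 of 11 genes were higher in PrE-T than in TBLC, 8 of 11 in EPI-T than in TBLC, and 9 of 11 in PrE-T than in EPI-T. With library totals these counts were 10, 8 and 8, and 1 gene was then called lower in EPI-T than in TBLC. Sqle, the squalene epoxidase, measured 30.4 and 28.6 CPM in TBLC, 68.9 and 70.5 in EPI-T and 131 and 133 in PrE-T. The groups rose in that order without overlap, at log2 2.16 ± 0.074 for PrE-T and 1.24 ± 0.075 for EPI-T against TBLC. Cyp51, the lanosterol demethylase, measured 37.5 and 35.2 CPM in TBLC, 69.5 and 72.4 in EPI-T and 211 and 217 in PrE-T, and PrE-T exceeded EPI-T by log2 1.59 ± 0.066 (adjusted p = 7.54e-13). Lss, which closes the ring to lanosterol, differed by log2 2.22 ± 0.12 in PrE-T and 1.60 ± 0.12 in EPI-T against TBLC.

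Ebp and Sc5d, which act late in the sterol path by moving and adding a double bond, gave another pattern. Ebp measured 23.1 and 25.4 CPM in TBLC, 22.02 and 26.7 in EPI-T and 79.5 and 79.4 in PrE-T. The TBLC and EPI-T libraries overlapped, with a log2 difference of 0.0028 ± 0.11 (adjusted p = 0.985), while PrE-T lay above both by log2 1.71 ± 0.11 over EPI-T. Sc5d gave log2 1.41 ± 0.11 in PrE-T against EPI-T and -0.17 ± 0.11 in EPI-T against TBLC, the latter not called. Dhcr7, the enzyme of the last reduction to cholesterol, gave the opposite pattern. It was higher than TBLC by 1.99 ± 0.12 in EPI-T and 1.91 ± 0.12 in PrE-T, with -0.08 ± 0.11 between the sorted populations (adjusted p = 0.517). Tm7sf2, a sterol reductase, was likewise not called between PrE-T and EPI-T at log2 -0.13 ± 0.19, and Fdft1, Msmo1, Nsdhl and Hsd17b7 passed the test between the sorted populations, higher in PrE-T, at log2 0.45 to 1.08.

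The regulators did not move as a block. Srebf2, which encodes SREBP-2, measured 61.8 and 64.9 CPM in TBLC, 117 and 123 in EPI-T and 239.8 and 227 in PrE-T, a rise without overlap. Srebf1, which encodes SREBP-1, measured 29.4 and 31.97 CPM in TBLC, 34.8 and 38.6 in EPI-T and 66.7 and 63.7 in PrE-T, with log2 0.26 ± 0.099 in EPI-T and 1.09 ± 0.097 in PrE-T against TBLC. Insig1, itself a target of SREBPs, measured 19.4 and 18.5 CPM in TBLC, 53.4 and 55.5 in EPI-T and 80.96 and 82.3 in PrE-T. Scap went the other way, with 48.5 and 56.1 CPM in TBLC, 26.0 and 21.1 in EPI-T and 34.9 and 35.2 in PrE-T. Its TBLC libraries were the highest and did not overlap with either sorted population, at log2 -0.57 ± 0.11 in PrE-T and -1.15 ± 0.12 in EPI-T. Insig2 was lower in EPI-T than in TBLC at log2 -0.64 ± 0.12 and differed by -0.0016 ± 0.12 in PrE-T (adjusted p = 0.991). The latter depends on the scaling. With library totals, 4 of the 6 regulators were higher and 2 lower in PrE-T than in TBLC, in place of 4 and 1, so Insig2 was then called lower. Stard4, which carries sterols between membranes, was higher in PrE-T by 1.69 ± 0.083 and in EPI-T by 0.89 ± 0.084.

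All 9 of 9 genes of the fatty acid steps were higher in PrE-T than in TBLC, and 8 of 9 in EPI-T. Between the sorted populations 5 were higher and 2 lower in PrE-T. With library totals 8 of 9 were higher in PrE-T and 8 of 9 in EPI-T than in TBLC, and 4 were higher and 3 lower between the sorted populations. Fasn, the fatty acid synthase, measured 232 and 230.4 CPM in TBLC, 376 and 394 in EPI-T and 475 and 437 in PrE-T. Acaca, the acetyl-CoA carboxylase ahead of it, measured 42.1 and 46.2 CPM in TBLC, 134 and 124 in EPI-T and 88.4 and 83.2 in PrE-T. Fasn was highest in PrE-T (log2 0.25 ± 0.055 against EPI-T) and Acaca highest in EPI-T (log2 -0.59 ± 0.073), in both cases without overlap. Elovl6, the elongase of saturated chains, was like Acaca at -0.35 ± 0.069.

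Among the desaturases, Scd1, which puts the first double bond into saturated chains, measured 59.7 and 60.2 CPM in TBLC, 131 and 136 in EPI-T and 284 and 284 in PrE-T. Its relative Scd2 measured 268 and 262 CPM in TBLC, 798 and 780.1 in EPI-T and 885 and 834 in PrE-T. Scd1 was thus separated between all 3 groups, with log2 1.09 ± 0.057 in PrE-T against EPI-T, and Scd2 mostly between TBLC and the sorted cells, with 0.12 ± 0.05 in PrE-T against EPI-T. Fads1, a desaturase of polyunsaturated chains, was higher in PrE-T than in TBLC by 1.49 ± 0.10 and not called in EPI-T (0.22 ± 0.10), and its relative Fads2 was higher in both by 2.01 ± 0.14 and 1.13 ± 0.14. Acly and Acss2, which supply cytosolic acetyl-CoA, were not called between PrE-T and EPI-T, at -0.10 ± 0.056 and 0.25 ± 0.21.

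**Figure D2:**
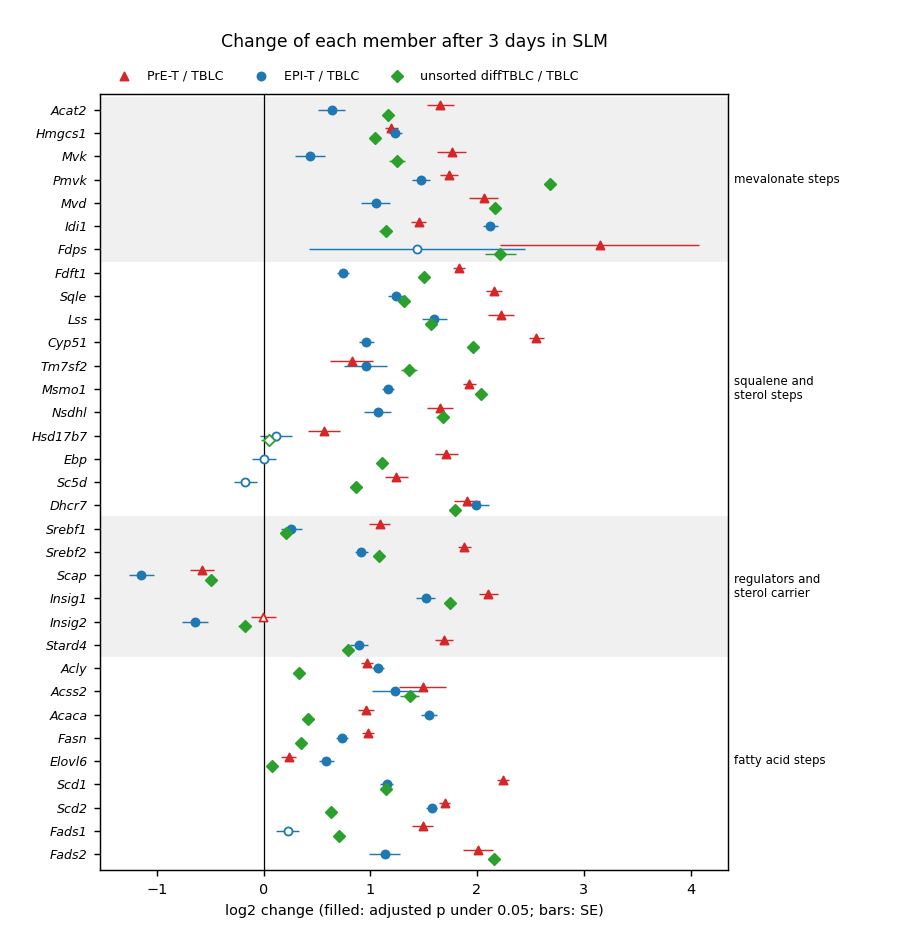
Log2 difference with standard error for each of the 33 genes (rows, grouped by role) in PrE-T and EPI-T against TBLC and in unsorted diffTBLC against TBLC at 0 h; filled points passed the adjusted threshold. Most points lie to the right of 0, and Scap lies to the left of 0 in all 3 comparisons.

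Genes around the pathway were mixed. Of all genes tested, 33.5% were higher and 33.8% lower in PrE-T than in TBLC, and 30.1% and 34.8% in EPI-T. Of 13 genes of sterol transport and storage, 3 were higher and 6 lower in PrE-T than in TBLC, and 2 higher and 11 lower in EPI-T. Soat1, which esterifies cholesterol, was higher in PrE-T by 2.04 ± 0.072, and the cholesterol exporter Abca1 was lower at log2 -1.54 ± 0.12. In EPI-T the lipoprotein receptor Vldlr was lower at log2 -3.42 ± 0.24, and the lysosomal lipase Lipa at -1.93 ± 0.16. Of 4 genes of NADPH supply, which provide the reducing power for synthesis, 4 were higher in PrE-T, and in EPI-T 1 was higher and 3 lower. Me1, the malic enzyme, differed by 2.13 ± 0.095 between PrE-T and EPI-T. Of 6 genes that process SREBPs or mark sterol enzymes for degradation, 2 were higher and 1 lower in PrE-T, and 1 higher and 2 lower in EPI-T.

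Of 10 fatty acid oxidation genes tested, 4 were higher and 3 lower in PrE-T than in TBLC, and 3 higher and 6 lower in EPI-T. The PrE-T counts lay near the shares of all genes (33.5% and 33.8%), and those shares were 30.1% and 34.8% in EPI-T. Of 9 genes of acyl-CoA and glycerolipid synthesis, 7 were higher and 0 lower in PrE-T, and 4 higher and 3 lower in EPI-T. Of 8 genes on other branches of the mevalonate pathway, such as protein prenylation, 3 were higher and 1 lower in PrE-T, and 3 higher and 2 lower in EPI-T.

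Markers of other cell types moved with these groups. All 8 fibroblast and feeder markers were called lower than TBLC in both sorted populations. The 10 PrE markers summed to 1784 and 1730 CPM in TBLC, 225 and 226 in EPI-T and 20210 and 20170 in PrE-T. Against TBLC, 10 of 10 were higher in PrE-T (background 33.5%) and 10 of 10 lower in EPI-T (background 34.8%). They include Pdgfra, whose direction is not independent of the sort on CD140. The 8 epiblast and naive markers summed to 1699 and 1717 CPM in TBLC, 3310 and 3264 in EPI-T and 989 and 979 in PrE-T. The 4 trophoblast markers (Cdx2, Krt8, Krt18 and Tfap2c) summed to 126 and 136 CPM in TBLC, 48.6 and 36.8 in EPI-T and 509 and 560.4 in PrE-T. This sum does not tell which of the 4 differed. Of 6 visceral endoderm markers, 4 passed the filter on low counts (Apoa1, Apob, Ttr and Amn, without Afp and Rbp4). They summed to 5.24 and 5.71 CPM in TBLC, 1.23 and 0.864 in EPI-T and 153 and 145 in PrE-T. The part of other cell types in the members' differences was not tested.

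A like comparison could be made with unsorted cells in separate libraries, those taken at 0 h in the actinomycin D course of TBLC and diffTBLC. Here 30 of 33 members were higher and 2 lower in diffTBLC (background 42.8% and 39.7%), with a median log2 of 1.15 beside 0.02 over all genes. The members summed to 2530 and 2518 CPM in TBLC and 4732 and 4731 in diffTBLC. PrE markers summed to 381 and 389 CPM in TBLC against 4163 and 4143 in diffTBLC, with 10 of 10 called higher in diffTBLC, and fibroblast and feeder markers to 273 and 284 against 104 and 98.9, with 7 of 8 called lower. Their part in the result was not tested.

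Pmvk had the largest difference of the members, measuring 14.1 and 14.5 CPM in TBLC and 90.9 and 92.7 in diffTBLC, at log2 2.68 ± 0.054 (adjusted p = 8.19e-61). Msmo1, which begins the removal of methyl groups from lanosterol's derivatives, measured 54.9 and 58.2 CPM in TBLC against 234 and 230.0 in diffTBLC. Hmgcs1 measured 181 and 181 CPM in TBLC and 368 and 377 in diffTBLC, so the groups lay apart at log2 1.04 ± 0.026. Insig1 measured 31.97 and 30.9 CPM against 102 and 109, and Srebf2 91.01 and 88.8 against 192 and 188. Neither gene's groups overlapped. Sqle and Cyp51 were higher by log2 1.31 ± 0.037 and 1.96 ± 0.037, and Idi1 by 1.14 ± 0.06.

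All 9 genes of the fatty acid steps were called higher in diffTBLC under TMM scaling, over a wide range. Fasn measured 223 and 223 CPM in TBLC and 288 and 281 in diffTBLC (log2 0.35 ± 0.026), Acaca gave 0.41 ± 0.054 and Acly 0.33 ± 0.024, while Acss2 measured 7.03 and 7.90 against 19.6 and 18.9 CPM, a difference of 1.37 ± 0.091. Elovl6 was called higher at 0.08 ± 0.031, and called lower at -0.13 ± 0.031 with library totals. The desaturase Fads2 measured 17.1 and 15.99 CPM in TBLC against 73.4 and 74.98 in diffTBLC, a difference of 2.16 ± 0.056, and Scd1 76.4 and 73.2 against 166 and 166, of 1.15 ± 0.034. Scap and Insig2 were again lower, at log2 -0.49 ± 0.051 and -0.18 ± 0.061, and with 1 diffTBLC library left out (replicate 1) 1 member was called lower in place of 2. Srebf1 was called higher at 0.21 ± 0.048 and turned to -0.000178 with library totals in place of TMM scaling. Hsd17b7, a reductase of the sterol steps, was not called at 0.05 ± 0.081.

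Around the pathway, 4 of 4 NADPH genes were higher in diffTBLC, where 42.8% of all genes tested were higher and 39.7% lower. Of 6 genes that process SREBPs or degrade sterol enzymes, 1 was higher and 5 lower, among them the proteases Mbtps1 (-0.42 ± 0.03) and Mbtps2 (-0.62 ± 0.056), which cut SREBPs free in the Golgi. Of 13 transport genes 4 were higher and 7 lower, with Soat1 at 1.45 ± 0.053 and Abca1 at -1.89 ± 0.061. Fatty acid oxidation had 7 of 10 tested higher and 2 lower, acyl-CoA and glycerolipid synthesis 5 of 9 higher and 1 lower, and the other branches of the mevalonate pathway 3 of 8 higher and 1 lower.

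The level of a member in TBLC varied between tables, each of which was scaled on its own. Idi1 measured 40.4 and 36.99 CPM in the TBLC libraries beside the sorted cells, 19.9 and 21.1 in those of the diffTBLC course and 10.2 and 9.38 in TBLC_Ctrl. Hmgcs1 measured 147 and 148 CPM beside the sorted cells, 181 and 181 in the diffTBLC course and 104 and 100.4 in TBLC_Ctrl. For Idi1 the gap between these TBLC groups was wider than that between TBLC and diffTBLC within 1 table, and such gaps were not tested, since the tables were scaled separately.

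After the shorter change of medium, 8 h in SLM, few members were called. At 0 h in the course of TBLC_Ctrl and TBLC_PlaB-, 0 of 33 members were called higher and 0 lower by edgeR (background 0.780% and 0.475%). DESeq2 called 0 higher and 0 lower. At an unadjusted p under 0.05 in edgeR there were 9 members. The share of all genes at that cut was not taken, so this count is not a result about the members. Over the 1 to 3 h libraries together, 6 were higher and 2 lower (background 12.8% and 7.84%), with a median log2 of 0.04 beside 0.01. Insig1, an early target of SREBPs, had the largest of these differences. It measured 22.8 and 22.5 CPM in TBLC_Ctrl and 26.6 and 26.9 in TBLC_PlaB- at 0 h, 14.1 and 16.2 against 18.8 and 20.7 at 1 h, 13.1 and 14.1 against 16.5 and 17.7 at 2 h, and 14.2 and 11.3 against 15.5 and 17.05 at 3 h. The TBLC_PlaB- libraries lay above TBLC_Ctrl at every time, at log2 0.37 ± 0.054 over 1 to 3 h (adjusted p = 2.50e-08) and 0.24 ± 0.073 at 0 h (adjusted p = 0.0793).

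Scd1 was higher over 1 to 3 h by 0.28 ± 0.031, and Acly, Elovl6, Acat2 and Hmgcs1 by 0.06 to 0.11, while Pmvk was lower at log2 -0.16 ± 0.038 and Fdft1, the squalene synthase, at -0.06 ± 0.017. DESeq2 called 3 higher and 2 lower. Averaged over 2 and 3 h only, 3 were called higher. Leaving out TBLC_Ctrl at 2 h (replicate 2) or TBLC_PlaB- at 1 h (replicate 2) also left 3 higher, and the count of lower calls was 1, 4 and 5 without TBLC_Ctrl at 2 h (replicate 2), TBLC_PlaB- at 1 h (replicate 2) and TBLC_Ctrl at 3 h (replicate 1).

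The steady-state siRNA experiment asked what loss of m6A methyltransferase parts does to diffTBLC. Virma itself measured 122 and 115 CPM in siNC and 87.1 and 80.96 in siVirma (log2 -0.50 ± 0.085, adjusted p = 1.88e-06). Mettl3 measured 31.2 and 29.7 CPM in siNC and 26.4 and 27.5 in siMettl3, which was not called (log2 -0.18 ± 0.15, adjusted p = 0.771). Of the 33 members, 1 was higher and 1 lower in siVirma (background 3.48% and 3.63%). In siMettl3 0 were higher and 1 lower (background 0.412% and 0.453%). At an unadjusted p under 0.05 there were 8 and 4 members. No share of all genes was taken at that cut, so these counts are not a result about the members. DESeq2 called 1 higher and 0 lower in siVirma, and 0 and 0 in siMettl3. Both comparisons use the same siNC libraries.

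The gene called lower in both was Cyp51, at 129.8 and 139 CPM in siNC, 106 and 115 in siVirma and 110.2 and 103 in siMettl3. Its siNC libraries lay above the others, at log2 -0.28 ± 0.079 (adjusted p = 0.01) and -0.33 ± 0.078 (adjusted p = 0.00714). Without siNC replicate 2 it was called in neither comparison, and the siMettl3 call was also lost without siMettl3 replicate 2. Leaving out siVirma replicate 1 ended its call in siVirma, where the count of lower calls was 2 without siVirma replicate 2. Scd2 was higher in siVirma, with 1005 and 1001 CPM in siNC and 1191 and 1128 in siVirma (log2 0.21 ± 0.031, adjusted p = 1.62e-08). No other member was called in either comparison. Hmgcs1 measured 261 and 259.8 CPM in siNC, 219 and 249.7 in siVirma and 245 and 261 in siMettl3, and Fasn differed by -0.06 ± 0.032 and -0.03 ± 0.032. PrE markers summed to 7877 and 8010 CPM in siNC, 5047 and 5075 in siVirma and 6793 and 6872 in siMettl3, and their part in these values was not tested.

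The pull-down with the IGF2BP3 antibody was compared with its input. Of the members, 16 of 33 were higher and 13 lower (background 35.0% and 34.8%), with a median log2 of 0.07 beside -0.01. With library totals in place of TMM scaling, which moved the median of all genes to -0.21, the split was 9 higher and 17 lower. In the fatty acid steps 8 of 9 were higher and 0 lower, and in the mevalonate steps 0 of 7 were higher and 6 lower. The sterol steps split 5 higher and 4 lower of 11, and the regulators 3 and 3 of 6. With library totals the counts were 6 higher and 2 lower in the fatty acid steps, 0 and 6 in the mevalonate steps, 1 and 6 in the sterol steps and 2 and 3 among the regulators. Acly, called higher at 0.07 ± 0.029 under TMM scaling, was then called lower at -0.13 ± 0.029, Acss2 went from -0.21 ± 0.14, not called, to a lower call at -0.41 ± 0.14, and Elovl6 went from 0.22 ± 0.042 to 0.02 ± 0.042, no longer called. The difference between the roles was not tested.

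**Figure D3:**
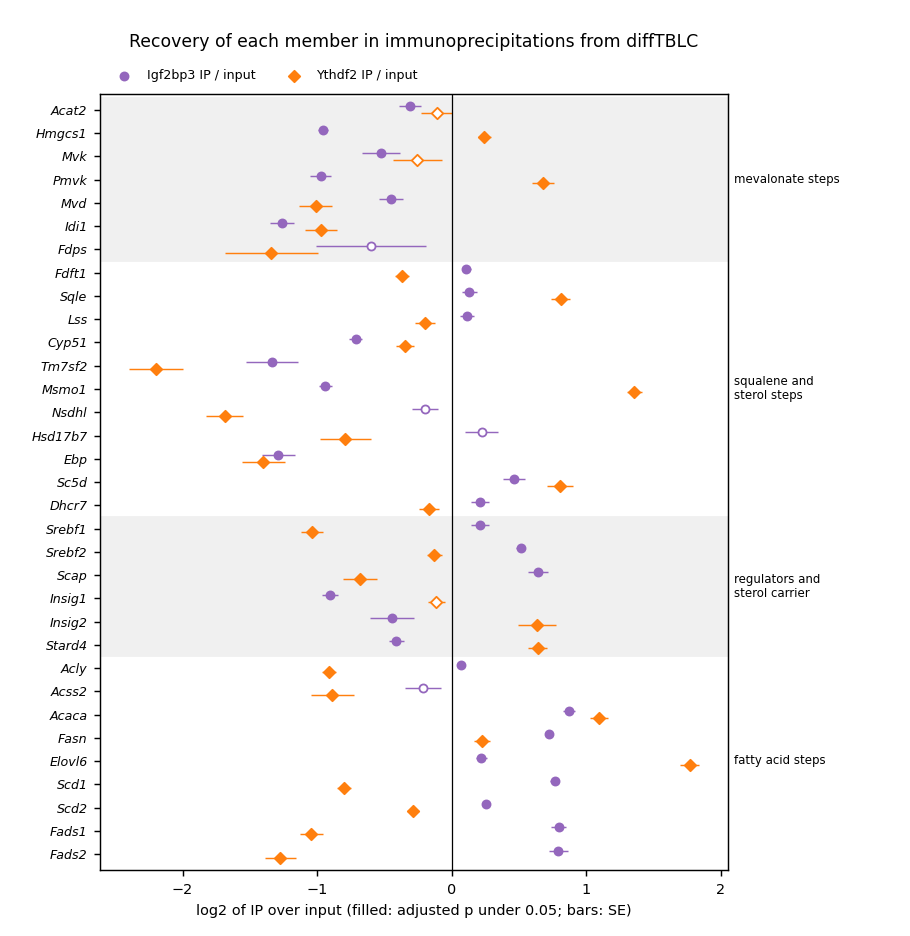
Log2 difference with standard error between pull-down and input for each of the 33 genes (rows, grouped by role), for the IGF2BP3 and the YTHDF2 antibody; filled points passed the adjusted threshold. Under TMM scaling, in the IGF2BP3 pull-down 8 of 9 fatty acid genes lie to the right of 0 and are called (6 of 9 with library totals), and 6 of 7 mevalonate genes lie to the left and are called. In the YTHDF2 pull-down Elovl6, Msmo1 and Acaca lie farthest to the right and Tm7sf2 farthest to the left.

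Acaca rose from 129 and 124 CPM in input to 231 and 231 in the IGF2BP3 pull-down, log2 0.87 ± 0.047 (adjusted p = 1.42e-75). Fasn rose from 436 and 425 to 707 and 711 CPM, and Scd1 from 307 and 298 to 522 and 505. Pull-down and input did not overlap for any of the 3, and Fads1 and Fads2 were higher by 0.79 ± 0.057 and 0.79 ± 0.072. Among the regulators, Srebf2 rose from 349 and 369 to 506 and 518 CPM (log2 0.51 ± 0.034), and Scap was higher by 0.64 ± 0.076 and Srebf1 by 0.21 ± 0.069.

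Hmgcs1 fell from 399 and 384 CPM in input to 205 and 198 in the pull-down, log2 -0.96 ± 0.037 (adjusted p = 2.39e-141). Idi1 fell from 55.1 and 61.2 to 24.2 and 24.3 CPM, and Insig1 from 119 and 130.4 to 63.9 and 69.3. In each of the 3 genes both pull-down libraries lay below both inputs. In the sterol steps Tm7sf2 was lower at log2 -1.34 ± 0.19, Ebp at -1.29 ± 0.12, Msmo1 at -0.94 ± 0.049 and Cyp51 at -0.72 ± 0.051, and Sc5d was higher at 0.47 ± 0.082. Sqle was called higher at 0.13 ± 0.055 and turned to -0.068 with library totals. Igf2bp3 mRNA measured 67.4 and 67.96 CPM in input and 81.3 and 80.5 in the pull-down. The PrE markers summed to 7463 and 7296 CPM in input and to 17302 and 17332 in the pull-down. Within this sum Cubn rose from a mean of 1050 to 5606 CPM, while Sox17 fell from 29.7 to 20.6. The share of ribosomal protein genes went from 5.17% to 2.66%. The part of these markers and of that share in the members' values was not tested.

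Genes around the pathway were mixed in the IGF2BP3 pull-down, where 35.0% of all genes tested were higher and 34.8% lower. Of 12 transport genes tested 7 were higher and 3 lower, of 6 SREBP-processing genes 4 and 2, and of 10 fatty acid oxidation genes tested 3 and 6.

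The YTHDF2 pull-down was a separate experiment with its own inputs. In it 10 of 33 members were higher and 20 lower than input (background 40.2% and 38.8%), with a median log2 of -0.29 beside 0.02. Elovl6 rose from 90.03 and 100.1 CPM to 319.7 and 330.3, the largest rise of the members at log2 1.77 ± 0.071 (adjusted p = 1.66e-34). Msmo1 rose from 229.5 and 236 to 596 and 595 CPM and Acaca from 157 and 154 to 329.5 and 334. These libraries lay far apart from their inputs, and Sqle did so less, from 111 and 116 to 193 and 205 CPM (log2 0.81 ± 0.072).

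At the other end Tm7sf2 fell from 22.3 and 22.01 CPM to 5.001 and 4.65 (log2 -2.20 ± 0.20), and Nsdhl, a dehydrogenase that removes methyl groups from sterols, from 44.6 and 45.4 to 13.7 and 14.2 CPM. Ebp was lower at log2 -1.40 ± 0.16, Fads2 at -1.27 ± 0.11 and Srebf1 at -1.04 ± 0.083. Scd1 fell from 450.1 and 475 to 265 and 265 CPM, whereas it rose in the IGF2BP3 pull-down. Hmgcs1 was higher by 0.24 ± 0.049 here, and Insig1 was not called at -0.12 ± 0.065 (adjusted p = 0.1). The difference between the antibodies was not tested, because the experiments were analysed as separate tables. By role, the YTHDF2 pull-down had 2 higher and 3 lower of 7 mevalonate genes, 3 and 8 of 11 sterol genes, 2 and 3 of 6 regulators, and 3 and 6 of 9 fatty acid genes.

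Beside these values, Ythdf2 mRNA went from 81.1 and 96.3 CPM in input to 333 and 341 in the pull-down. The share of ribosomal protein genes went from 8.82% to 2.25%, and that of mitochondrial transcripts from 1.06% to 0.149%. PrE markers summed to 889 and 901 CPM in the YTHDF2 inputs and to 7463 and 7296 in the IGF2BP3 inputs, both from cells labelled diffTBLC. The part of these in the members' values was not tested.

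After actinomycin D, a transcript's CPM measures its share of what is left, so the slope over 0 to 3 h (log2 per hour) tells how fast it was lost compared with the centre of the transcriptome, which is no absolute decay rate, and the labels list no spike-in. Most members had slopes called above that centre under TMM scaling, and not with library totals or ribosomal protein gene scaling. In TBLC 22 of 33 slopes were called above 0 and 5 below (background 37.2% and 28.1%), and in diffTBLC 20 and 3 (background 30.8% and 28.6%). The medians were 0.13 and 0.08 log2 per hour, beside 0.04 and 0.01 over all genes. These directions belong to the TMM scaling. With library totals the counts were 6 above and 10 below in TBLC and 8 and 12 in diffTBLC, and scaled to ribosomal protein genes 0 and 27 in TBLC and 0 and 30 in diffTBLC. The latter scaling moved the median of all genes to -0.27 and -0.30 log2 per hour. Without the 0 h libraries the diffTBLC counts were 10 above and 12 below. Shares of all genes were taken for the reported fits only.

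**Figure D4:**
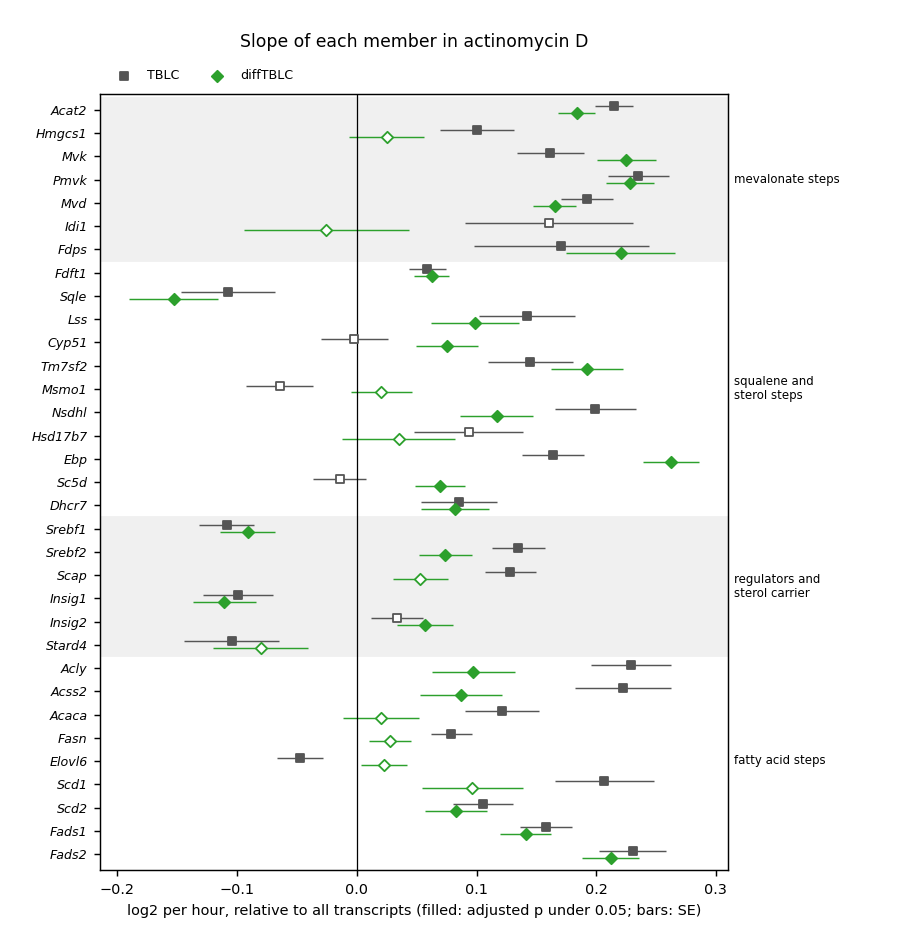
Slope with standard error over 0 to 3 h of actinomycin D (log2 per hour, relative to the centre of all transcripts under TMM scaling) of each of the 33 genes in TBLC and diffTBLC; filled points passed the adjusted threshold. Sqle, Insig1 and Srebf1 lie to the left of 0 in both, and Pmvk lies to the right in both.

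Sqle, Insig1 and Srebf1 were called below 0 in both cell states under TMM scaling. Sqle measured 53.6 and 54.1 CPM at 0 h, 58.5 and 54.9 at 1 h, 52.1 and 53.5 at 2 h and 42.3 and 43.4 at 3 h in TBLC, and 133 and 135, then 151 and 149, then 126 and 128, then 96.8 and 101 CPM in diffTBLC. Its slopes were -0.11 ± 0.039 in TBLC and -0.15 ± 0.037 in diffTBLC, those of Insig1 -0.10 ± 0.029 and -0.11 ± 0.026, and those of Srebf1 -0.11 ± 0.023 and -0.09 ± 0.023. The lowest values of Sqle were those of 3 h in both cell states. Stard4 and Elovl6 were called below 0 in TBLC, at -0.10 ± 0.04 and -0.05 ± 0.019. Without either of the 3 h libraries of TBLC, 2 members were called below 0 there, and 1 in diffTBLC without its 3 h replicate 2.

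Pmvk rose through both courses, from 14.1 and 14.5 CPM at 0 h to 23.3 and 22.7 at 3 h in TBLC and from 90.9 and 92.7 to 148 and 148 in diffTBLC, with slopes of 0.24 ± 0.025 and 0.23 ± 0.02. Under ribosomal protein gene scaling no member had a slope called above 0. Hmgcs1 in diffTBLC had no single direction, with 368 and 377 CPM at 0 h, 470.1 and 476 at 1 h, 447 and 454 at 2 h and 389.6 and 415 at 3 h. Its highest libraries were those of 1 h. Scd1 had the same shape, with 166 and 166, then 252 and 243, then 234 and 224, then 216 and 215 CPM. The diffTBLC slope counts were 12 and 13 above 0 without each of the 0 h libraries of diffTBLC in turn (replicates 1 and 2).

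The difference in slope between diffTBLC and TBLC was called above 0 in 0 members and below 0 in 0 by edgeR (background 2.56% and 5.66%). At an unadjusted p under 0.05 there were 9 members. No share of all genes was taken at that cut, so this count is not a result about the members. DESeq2 called 3 above and 0 below. The edgeR counts rested on the 0 h libraries, since without them 2 were above and 17 below. The share of all genes was not taken in that fit, so these counts are not a result about the members. Without either diffTBLC library of 3 h, 5 were above 0, and without diffTBLC at 0 h (replicate 1 or 2) 1 or 2 were below. Between TBLC_PlaB- and TBLC_Ctrl, 0 slope differences were called above 0 and 0 below (background 0.319% and 0.0922%), and DESeq2 called 0 and 0. An unadjusted p under 0.05 was reached by 3 members, again with no share of all genes to set it against. Without the 0 h libraries 2 were above and 8 below, again with no share of all genes taken.

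The remaining courses followed RNA after siRNA in diffTBLC, and 3 of their groups stood apart. Ribosomal protein genes took 17.3% of counts in siNC1 at 0 h, 15.3% in siNC2 at 0 h and 24.6% in the libraries labelled siIgf2bp3 at 3 h, against 7.30% to 15.1% in the other groups of these courses. Idi1 showed the same 3 groups. In the siVirma course it measured 9.27 and 10.9 CPM at 0 h, 65.1 and 67.4 at 1 h, 45.5 and 44.4 at 2 h and 76.99 and 75.7 at 3 h in siNC1, and 32.99 and 29.2, then 27.7 and 28.3, then 22.3 and 22.8, then 25.2 and 30.2 CPM in siVirma. In the other course it measured 12.2 and 10.4, then 71.6 and 74.7, then 51.6 and 51.7, then 86.4 and 75.4 CPM in siNC2, and 49.9 and 47.6, then 43.97 and 43.8, then 37.3 and 34.2, then 12.5 and 14.1 CPM in the libraries labelled siIgf2bp3. The 0 h control libraries were thus the lowest of their courses, and the 3 h libraries labelled siIgf2bp3 the lowest of their arm. The mean level of the 100 other transcripts that fell most steeply in the diffTBLC course, a separate set of libraries, was also unlike in the 0 h controls. From 0 to 1 h it went from 5.47 to 5.26 log2 CPM in siNC1 and from 5.42 to 5.35 in siNC2. In siVirma it went from 5.66 to 5.19 and in the libraries labelled siIgf2bp3 from 5.78 to 5.201. In diffTBLC without siRNA it went from 5.89 to 5.005, a fall that follows from choosing the transcripts in those same libraries. The drop of the control arms over that hour was thus the smaller one in both courses, and whether the labels of the groups that stood apart are right was not tested.

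**Figure D5:**
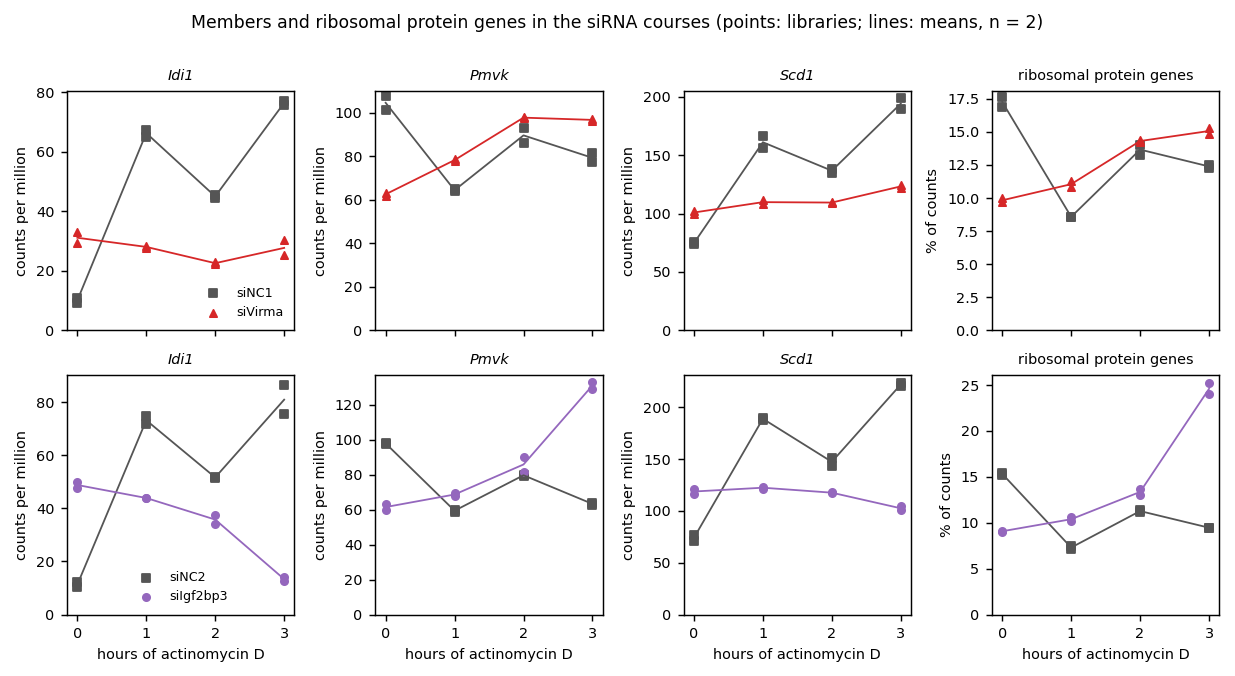
CPM of Idi1, Pmvk and Scd1 and the percent of counts in ribosomal protein genes (vertical axes) against hours of actinomycin D in the siVirma course (upper row) and the siIgf2bp3 course (lower row), with each library as a point and lines through the group means. Control libraries at 0 h and libraries labelled siIgf2bp3 at 3 h lie apart for Idi1, at 9.27 to 14.1 CPM.

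At 0 h, 13 of 33 members were higher and 13 lower in siVirma than in siNC1 (background 33.1% and 27.2%), and with library totals, which moved the median of all genes to 0.24, 19 and 7. This comparison rests wholly on the siNC1 0 h libraries that stood apart, so it has no value without them. Over 1 to 3 h 6 were higher and 21 lower (background 35.5% and 36.0%), with a median log2 of -0.28 beside 0.0038. The siNC1 0 h libraries are not among those averaged there, but they still enter the filter, the scaling and the shared estimate of spread. Averaged over 1 and 2 h only, 4 were higher and 18 lower. Virma was lower in siVirma at log2 -0.27 ± 0.061 at 0 h and -1.04 ± 0.035 over 1 to 3 h. Hmgcs1 measured 232 and 241 CPM at 0 h, 374 and 387 at 1 h, 323 and 347 at 2 h and 376 and 384 at 3 h in siNC1, and 227 and 226, then 245 and 253, then 239.8 and 228, then 250.5 and 246 CPM in siVirma. The arms lay apart from 1 h on, at log2 -0.58 ± 0.025 over 1 to 3 h, and the 0 h difference was -0.06 ± 0.044 (adjusted p = 0.242).

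Idi1 changed sign between these readings, from 1.64 ± 0.095 at 0 h to -1.23 ± 0.04 over 1 to 3 h, and so did Scd1, from 0.43 ± 0.05 to -0.51 ± 0.026. Sqle, Cyp51, Msmo1 and Acat2 were lower at both. Pmvk went from -0.74 ± 0.05 to 0.23 ± 0.029, and Dhcr7 was higher at both, by 0.54 ± 0.058 and 0.17 ± 0.031. At 0 h Sqle and Fasn were called lower at -0.12 ± 0.046 and -0.19 ± 0.046, and turned to 0.070 and 0.0012 with library totals. The steady-state experiment, with other libraries, gave 0.02 ± 0.12 for Idi1, -0.15 ± 0.056 for Hmgcs1 and 0.02 ± 0.069 for Scd1 in siVirma against siNC.

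The siIgf2bp3 label was not borne out at 0 h. Igf2bp3 measured 19.9 and 16.7 CPM in siNC2 at 0 h and 28.7 and 25.3 in the libraries labelled siIgf2bp3, which was higher by 0.56 ± 0.079 (adjusted p = 2.84e-07), and it was lower at log2 -0.58 ± 0.041 over 1 to 3 h. Every direction that follows is between libraries labelled siIgf2bp3 and siNC2. At 0 h 22 members were higher and 8 lower (background 41.2% and 24.6%), and over 1 to 3 h 7 were higher and 25 lower (background 32.9% and 37.1%). Averaged over 1 and 2 h only, with the 3 h libraries still in the fit, 4 were higher and 24 lower. The 0 h comparison rests wholly on the siNC2 libraries that stood apart, and no value without them can be had.

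In this course Idi1 went from 2.11 ± 0.083 at 0 h to -1.29 ± 0.04 over 1 to 3 h, and Hmgcs1 from 0.55 ± 0.038 to -0.33 ± 0.021. Insig1 measured 50.7 and 52.9 CPM at 0 h, 94.1 and 95.2 at 1 h, 67.5 and 70.7 at 2 h and 74.97 and 76.99 at 3 h in siNC2, and 81.9 and 82.8, then 73.1 and 73.3, then 61.98 and 68.2, then 52.1 and 50.6 CPM in the libraries labelled siIgf2bp3. Only at 0 h were the latter above siNC2. Scd1 was lower over 1 to 3 h at log2 -0.69 ± 0.025 and Fasn at -0.27 ± 0.025, while Pmvk was higher by 0.45 ± 0.029 and Mvk by 0.28 ± 0.037.

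Slopes in these courses depended on the groups that stood apart. Shares of all genes are given only for the reported fits with all libraries. The slope difference between siVirma and siNC1 was above 0 in 1 member, Pmvk, and below 0 in 2, Nsdhl and Acly (background 2.91% and 6.02%), with DESeq2 calling 3 and 8. That between libraries labelled siIgf2bp3 and siNC2 was above 0 in 7 and below in 16 (background 26.4% and 26.0%), and 5 and 24 with library totals or 0 and 30 with ribosomal protein gene scaling. Without the 0 h libraries both courses gave 0 above and 0 below by edgeR, and so did the second course without its 3 h libraries labelled siIgf2bp3 as well. In the siVirma course, leaving out any 1 library of siNC1 at 0 or 3 h, or any of siVirma, left 0 calls in either direction, and leaving out 1 library of siNC1 at 1 h gave 4 or 5 above and 11 or 12 below.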

How the data were processed

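Gene counts of 86 libraries were read from 9 tables, all 33 members by symbol. The values are raw counts that the authors deposited; FastQC 0.12.1, Trim Galore, STAR 2.7.11b, Subread, DESeq2 and the mm39 build are named in the submitters' processing notes, with no role given. The counts were used as deposited, without further correction, and how reads shared by near-identical genes were counted is not given in the sources used here. RNA was taken up in TRIzol, and 2 kinds of stranded kit and 2 sequencers served the series per the labels' protocols; which library had which is not given. Such splits cannot be set against the groups.

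Each table was analysed on its own with edgeR 4.0.16 in R 4.3.3: TMM scaling, filterByExpr at its defaults (minimum count 10, minimum total 15), quasi-likelihood tests and Benjamini-Hochberg adjustment over all genes tested, with 0.05 as the threshold. In each actinomycin D course, means of arm and time were fitted, and separately straight lines per arm; slopes are log2 per hour. Alternatives were DESeq2 1.42.0, RLE scaling, library totals, ribosomal protein gene scaling, no filter, a replicate block, other times and 1 library left out. Alternatives restricted to 1 and 2 h or to 2 and 3 h were chosen after seeing the data. The scripts were tested on simulated data. No pair of replicates held identical counts.

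The members and gene lists were chosen with earlier results of these data known. Named in each comparison were Hmgcs1, Sqle, Insig1, Srebf1, Srebf2, Fasn, Scd1 and Scd2 and the 4 largest called changes in each direction; further members were named after their values were seen, to account for all 33. Promoters are RefSeq's on GRCm38.p6, matched by symbol, and serve only for names and sequence, since the counts were made on another build. Columns labelled TBLC_S were read as TBLC_PlaB-. The 12 m6A samples are not analysed here.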

Additional observations from a re-analysis of the deposited data

Results flagged for a closer look

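Slope differences after actinomycin D passed the interaction test in both siRNA courses. Between siVirma and siNC1, 1 of 33 members lay above 0 and 2 below (background 2.91% and 6.02%), counts near the shares of all genes. They were Pmvk at 0.30, Nsdhl at -0.22 and Acly at -0.22 log2 per hour. Between libraries labelled siIgf2bp3 and siNC2, 7 of 33 lay above 0 and 16 below (background 26.4% and 26.0%). Among these Mvk (0.42), Pmvk (0.51), Fdps (0.73) and Ebp (0.44) were above, and Idi1 (-1.22), Scd1 (-0.48), Hsd17b7 (-0.37), Stard4 (-0.37), Insig1 (-0.32), Hmgcs1 (-0.27), Scd2 (-0.23) and Srebf2 (-0.18) below. Each of these differences includes a 0 h control group that stood apart, and without the 0 h libraries no member was called in either course by edgeR.

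In the TBLC2 libraries, which enter no comparison, 33 of 33 members had more than 3 counts in both libraries. Fdps had only 5 and 5 counts and did not pass the filter on low counts. The share of all genes above 3 counts was not taken.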

How the results depend on the processing

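Of the 582 recomputed values of counts called, 486 stayed within the same range of the reported count, 63 fell and 33 rose. Of 2813 values of single genes and medians 2513 held, 166 lost a call, 60 gained 1, 44 moved and 30 reversed. Shares of all genes called were taken for the reported fits only, so the recomputed counts have none beside them.

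Among comparisons of levels, library totals took the median of all genes from -0.03 to -0.35 in PrE-T against TBLC. It went from -0.07 to -0.28 in EPI-T against TBLC and from 0.02 to -0.18 in diffTBLC against TBLC. Members' medians were then 1.37, 0.84 and 0.94. Library totals gave 5 members lower in PrE-T against EPI-T and 2 lower in PrE-T against TBLC. They gave 7 lower in siVirma against siNC1 at 0 h and 9 higher in the IGF2BP3 pull-down. They reversed Srebf1 in diffTBLC against TBLC (-0.000178), Sqle (0.070) and Fasn (0.0012) in siVirma against siNC1 at 0 h, and Sqle in the IGF2BP3 pull-down (-0.068). DESeq2 gave 3 higher in TBLC_PlaB- against TBLC_Ctrl over 1 to 3 h, as did averaging over 2 and 3 h only, and 0 lower in steady-state siVirma and siMettl3. Averaging over 1 and 2 h gave 4 higher in libraries labelled siIgf2bp3 against siNC2.

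For slopes, library totals gave 6 above and 10 below 0 in TBLC and 8 and 12 in diffTBLC, ribosomal protein gene scaling 0 and 27 and 0 and 30, and leaving out 0 h 10 and 12 in diffTBLC. In TBLC, library totals turned Hmgcs1 to -0.017, Fasn to -0.039 and Scd2 to -0.012. Ribosomal protein gene scaling turned Hmgcs1 to -0.20, Pmvk to -0.071, Srebf2 to -0.17, Acly to -0.076, Acss2 to -0.085, Fasn to -0.23, Scd1 to -0.098, Scd2 to -0.20 and Fads2 to -0.075. In diffTBLC it turned Mvk to -0.084, Pmvk to -0.079, Fdps to -0.089, Ebp to -0.046, Srebf2 to -0.24 and Scd2 to -0.23. Library totals gave -0.047 for Srebf2 and -0.038 for Scd2 there, and leaving out 0 h -0.0051 and -0.030.

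For the slope difference between diffTBLC and TBLC, DESeq2 and RLE scaling each gave 3 above 0, the fit without 0 h 2 above and 17 below, and 3 h set against 0 h 5 above and 8 below. Between TBLC_PlaB- and TBLC_Ctrl the counts were 2 and 8 without 0 h, and 1 below for 3 h against 0 h. Between siVirma and siNC1 they were 3 and 8 with DESeq2, 7 and 21 for 3 h against 0 h, and 0 and 0 with library totals, no filter, ribosomal protein gene scaling or without 0 h, where ribosomal protein gene scaling turned Pmvk to -0.0038. Between libraries labelled siIgf2bp3 and siNC2 ribosomal protein gene scaling gave 0 above and 30 below and turned Mvk to -0.19, Pmvk to -0.10 and Ebp to -0.18. Without 0 h, or without 0 h and siIgf2bp3 at 3 h, they were 0 and 0. The cause of these changes was not tested.

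Replicate numbers did not pair samples (correlation of deviations -0.163 to 0.432 over group pairs). A fit with the replicate number as a block gave 0 above and 1 below for the siVirma slope difference, in place of 1 and 2, and kept every other count within 1.5 times. With 1 library left out in turn, where a lone sample is assumed to vary like the other groups, members lower ranged from 1 to 2 in diffTBLC against TBLC, from 0 to 2 in steady-state siVirma and from 0 to 1 in siMettl3. In TBLC_PlaB- against TBLC_Ctrl over 1 to 3 h, members higher ranged from 3 to 6 and lower from 1 to 5. Slopes below 0 ranged from 2 to 6 in TBLC, and in diffTBLC slopes above ranged from 12 to 24 and below from 1 to 4. Slope differences ranged from 0 to 5 above and 0 to 2 below for diffTBLC, and from 0 to 5 above and 0 to 12 below for siVirma.

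With 2 libraries a group, small changes can be missed. In simulated counts for the steady-state siVirma comparison, 45.5% of genes changed by 0.5 on the log2 scale and 79.5% of those changed by 1 were recovered. Depth of 3968442 to 4750020 counts there limits the rarer members.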

Other observations

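TBLC2 is a further pair of libraries labelled as TBLCs in 2MYCP, scaled on its own. Scap, which was lower than TBLC in PrE-T, EPI-T and unsorted diffTBLC at 0 h, measured 146 and 142 CPM there. Srebf2 measured 157 and 143 CPM, Srebf1 72.1 and 73.2 and Insig1 40.6 and 41.6. Among the enzymes, Hmgcs1 measured 159 and 161 CPM, Idi1 19.1 and 20.1, Sqle 67.1 and 56.3, Cyp51 67.1 and 63.98, Fasn 430.4 and 425, Scd1 81.6 and 83.3 and Scd2 668 and 638. The 8 fibroblast and feeder markers summed to 1518 and 1446 CPM. Fdps did not pass the filter on low counts.

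Over the 16 libraries of the TBLC and diffTBLC course, 9242 genes outside the list were ranked against the mean log2 level of the 11 squalene and sterol genes. Those that followed it most closely were Lama1, Glul, Slc16a1, Itga3 and Tspan9, each with Pearson r of 0.998. Among the other members, r ranged from -0.877 (Scap) to 0.994 (Mvd). The libraries share 2 cell states and the hours of actinomycin D, so these values describe that course and carry no test.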
